A study of Mus musculus with 6 samples.

Results

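The 14-3-3 proteins of mouse retinal ganglion cells were followed through 6 bulk RNA sequencing libraries. The family has 7 genes in the mouse, which were taken as a fixed list of symbols: Ywhab (beta), Ywhae (epsilon), Ywhag (gamma), Ywhah (eta), Ywhaq (theta), Ywhaz (zeta) and Sfn (sigma). Of these 7 listed genes, 6 were analysed among 22413 genes with counts, and Sfn is not analysed here. The libraries came from ganglion cells of adult mice, whose axons make up the optic nerve, in a study placed under Tgfbr1 and protection of neurons by exosomes. All groups carried a floxed Tgfbr1 gene on both chromosomes (Tgfbr1flx/flx), which encodes the type I receptor for TGF-beta. The 3 knockout libraries also carried 1 Cre allele at Vglut2 (Vglut2Cre/+), and the 3 control libraries carried none (Vglut2+/+). Vglut2, or Slc17a6, is the vesicular glutamate transporter of many excitatory neurons, so its Cre acts in more neurons than ganglion cells. The labels do not say whether a sample was 1 mouse or a pool, so tests are against the spread among the samples as deposited, and that spread may be technical.

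14-3-3 proteins are dimeric adaptors that clasp other proteins at phosphorylated serine or threonine motifs. They hold clients such as the death promoter BAD, the FOXO transcription factors and RAF kinases in place, and they are among the abundant soluble proteins of brain tissue. The paralogs share a fold and many clients, differ in the partners they dimerise with, and sigma is mainly an epithelial protein.

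The coding stretch in which the paralogs are most alike shows how far their reads can be told apart, since a count of one member could otherwise hold reads of another. From the GENCODE release M21 transcripts (mm10 build), the 60-base window of the coding alignment with the most identical columns held 36 bases that were the same in all 7 genes. These are in capitals, and the bases that differ in at least 1 gene are in lower case, written 5′ to 3′. Positions count from the A of the start codon.
Ywhab, coding bases 631 to 690: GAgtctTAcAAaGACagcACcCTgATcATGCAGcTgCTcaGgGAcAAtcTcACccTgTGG
Ywhaz, coding bases 625 to 684: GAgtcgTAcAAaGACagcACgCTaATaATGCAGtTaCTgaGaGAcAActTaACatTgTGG
Ywhaq, coding bases 625 to 684: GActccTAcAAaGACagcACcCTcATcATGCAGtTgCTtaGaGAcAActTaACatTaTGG
Ywhag, coding bases 640 to 699: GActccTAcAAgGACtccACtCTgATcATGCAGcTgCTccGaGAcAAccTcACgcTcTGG
Ywhah, coding bases 640 to 699: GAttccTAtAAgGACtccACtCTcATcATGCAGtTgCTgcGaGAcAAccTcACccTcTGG
Ywhae, coding bases 634 to 693: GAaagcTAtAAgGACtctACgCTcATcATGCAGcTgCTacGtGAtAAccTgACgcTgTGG
Sfn, coding bases 631 to 690: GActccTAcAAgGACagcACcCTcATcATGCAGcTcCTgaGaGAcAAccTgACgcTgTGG

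Even in this window the closest pair, Ywhag and Ywhah, differed at 6 bases, and the most distant pair, Ywhae and Ywhaz, at 21. Over the whole coding sequence Ywhag and Ywhah were identical at 79.0% of aligned bases with a longest shared run of 30 bases. Ywhab and Ywhaz were identical at 75.1%, with a longest run of 26. No window of 50 bases was shared between any members' annotated transcripts, so reads of that length or longer can be assigned to one paralog. Processed pseudogenes were closer than paralogs. Ywhaq shared 18.5% of its 100-base windows with other annotated genes, Ywhaz 12.4%, mostly with 1 pseudogene, Gm4202, and Ywhah 3.11%, while Ywhab, Ywhae and Ywhag shared 0. The pseudogene Gm2423 holds 14.2% of the Ywhaq windows, the pseudogene Ywhaq-ps3 14.05% and the protein-coding gene Cdk5rap2 11%, in part the same windows. Gm2423 was counted 0, 18 and 12 times in controls 1 to 3 and 10, 385 and 116 times in knockouts 1 to 3. Cdk5rap2 had at most 78 counts, in knockout 1. Ywhaq has the largest shared part at 100 bases, so its counts are the least certain of the family. An antisense gene overlaps an exon of Ywhae (Gm26836) and of Ywhaq (Gm4419). Gm4419 had 1 count in knockout 1 and 0 in the other libraries. The strand setting of the counts is not given in the sources used here, so reads of such partners cannot be told apart.

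Depth was 7486359 to 21126291 gene counts per library. The ganglion cell markers, 21 genes, summed to 4262 to 7431 CPM (counts scaled to the library's total) in the knockouts and 1168 to 6402 CPM in the controls. The lowest was control 3, which had 0 counts of Slc17a6 and 1 count of Thy1. Other markers of the list went the other way. Control 3 had 4203 counts of Rbpms, against 52 in control 1 and 1 in knockout 1. It had 1394 counts of Pou4f1, against 0 in control 1. Of the 21 markers, 8 reached 10 counts in control 3, against 14 and 12 in controls 1 and 2. The numbers in knockouts 1 to 3 were 12, 16 and 13. Control 3 also had 6637 CPM over 13 endothelial markers, against 35.9 to 851 CPM in the other 5, and 6599 CPM over 9 Müller glia markers, against 874 to 2263. Vim alone gave 5867 CPM of that Müller glia sum. In control 2 Vim gave 1409 of 2188 CPM, so the rest of the list was not higher in control 3 than in control 2. Of the 9 markers, 5 reached 10 counts in control 3, as in control 2. Rlbp1 had 2493 counts in control 3 and 0 or 1 in each other library. Markers of 10 other cell types summed to at most 1238 CPM in any library. Tgfbr1 itself was counted 1, 0 and 1538 times in controls 1 to 3 and 46, 0 and 793 times in knockouts 1 to 3; counts over the whole gene do not separate its floxed part and so do not check the labels. In bulk samples fewer cells of a type and less RNA per cell cannot be told apart.

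All 6 analysed members were present in every library, in both genotypes. Each had at least 847 counts in every library, whereas of 11977 genes that reached 10 counts in some library only 1196 (9.99%) did so in all 6. The family took 0.429%, 0.599% and 0.249% of all counts across controls 1 to 3, and 0.424%, 0.528% and 0.391% across knockouts 1 to 3. Control 2 was highest and control 3 lowest, and the genotypes overlapped. The knockout sum averaged 4477 ± 715 CPM and the control sum 4256 ± 1752 CPM (SD, n = 3 each), which is 1.05 times (two-sided exact permutation test, p = 1). Without control 3, the library with the high endothelial sum, the difference of knockout minus control turned from 222 to -662.6 CPM, and the part of other cells in it was not tested.

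Of the 6 members, 5 were more even across libraries than most genes detected in all of them. The highest CPM was 2.03 times the lowest for Ywhae, 2.24 for Ywhab, 2.98 for Ywhaz, 3.22 for Ywhag and 3.29 for Ywhah. The median over the 1196 genes with 10 counts in all 6 libraries was 8.57, and 2.84% of these genes were more even than Ywhae and 17.5% more even than Ywhah. Ywhaq was the exception at 9.86, with 53.9% of the genes more even, with its lowest value in control 1. Each member had at least 847 counts in every library, and the 1196 genes were not matched to the members in level. Whether other genes of like level are as even was not tested.

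**Figure D1:**
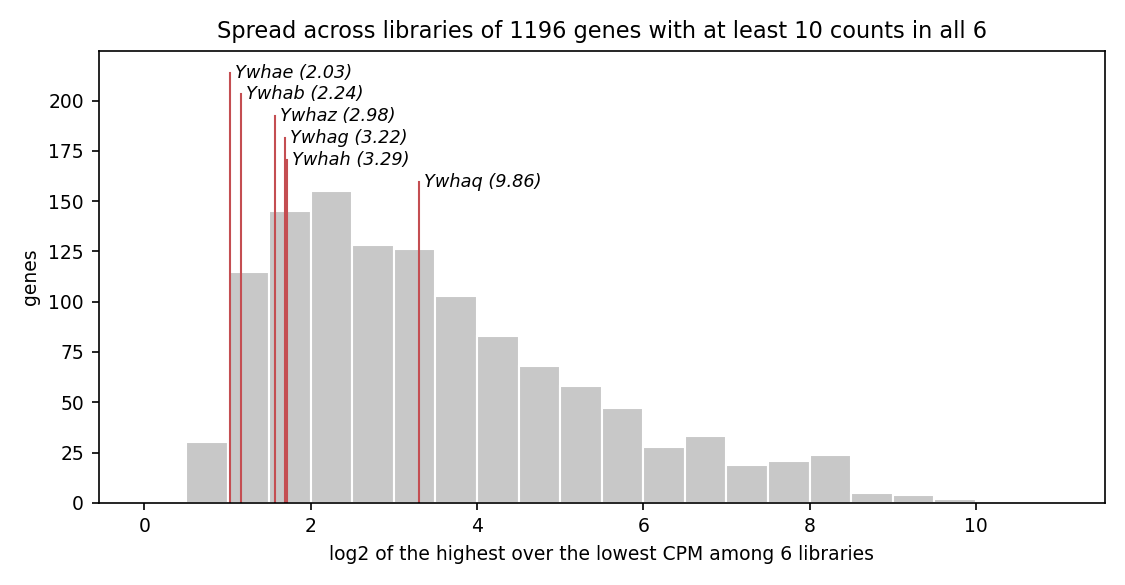
Histogram of the log2 ratio of the highest to the lowest CPM among 6 libraries, for the 1196 genes with at least 10 counts in all 6; red lines mark the 14-3-3 genes with their ratio. Of the 6 members, 5 lie between 2.03 and 3.29 and Ywhaq lies at 9.86, near the median gene at 8.57.

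Ywhah, which encodes 14-3-3 eta (mm10 chromosome 5, 33018816 to 33027966, plus strand), was the leading member in every library by counts and by the authors' FPKM. Levels per length are given as FPKM, counts scaled to the authors' gene length and to the library's total. Ywhah was at 898, 1203 and 366 FPKM across controls 1 to 3 and at 689, 1100.1 and 519.9 FPKM across knockouts 1 to 3. Control 3 was lowest, and the genotypes overlapped. By FPKM the gene ranked between 86 and 298 of the 22413 genes, and it was 2.29 to 5.42 times the next member of the same library. By counts the lead was smaller, from 1.13 times in knockout 3 to 1.91 times in knockout 2. It made up 39.0% to 58.1% of the summed FPKM of the family and 23.5% to 36.9% of its counts.

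The other members did not separate from one another by the authors' FPKM, though some pairs did with other lengths, as given below. Means over the 6 libraries (± SD) were 796 ± 329 FPKM for Ywhah, 185 ± 84.6 for Ywhaz, 182 ± 114 for Ywhaq, 157 ± 61.9 for Ywhag, 147 ± 48.4 for Ywhab and 129 ± 33.8 for Ywhae. Ywhah lay above Ywhaz, the second in this order, by 2.11 ± 0.60 on the log2(FPKM + 1) scale, in 6 of 6 libraries (exact sign-flip permutation test within libraries, two-sided, p = 0.031, the smallest that 6 libraries allow; adjusted over the 5 neighbouring pairs p = 0.156). The order was set by the means of these same 6 libraries, so this p adds no support for the lead. Among the other 5 members, 0 of 10 pairs lay in 1 direction in all 6 libraries by FPKM, and their mean differences ran from -0.01 to 0.43 on that scale (exact sign-flip permutation test, adjusted over the 10 pairs, p = 0.972 or above). Places 2 to 6 changed from library to library: Ywhaz was second in control 1, Ywhaq in controls 2 and 3 and knockouts 1 and 2, and Ywhag in knockout 3.

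The order and the size of the lead also rest on the gene length used, which was examined after the values were seen. The length implied by the authors' FPKM was 5715 bases for Ywhae, 2.72 times the longest coding transcript of GENCODE (2100 bases), and 0.96 to 1.26 times for the other 5 members. With the GENCODE transcript lengths, Ywhae moved from sixth to second place at 352 ± 92.1 CPM per kilobase. Ywhah remained first at 796 ± 329, and led Ywhae by 1.10 on the log2 scale in 6 of 6 libraries. With these lengths Ywhae in turn lay above Ywhab, Ywhag and Ywhaq in 6 of 6 libraries, by 1.09, 1.20 and 1.29 on the log2 scale (exact sign-flip permutation test, p = 0.031 for each, adjusted over 10 pairs p = 0.104). With the merged length of all annotated exons, 3709 bases for Ywhah and 2568 for Ywhae, Ywhah led in 5 of 6 libraries. The exception was control 3, with 174 CPM per kilobase of Ywhah and 217 of Ywhae. The mean lead was then 0.32 on the log2 scale (exact sign-flip permutation test, p = 0.0938). Among the other 5 members, 5 of 10 pairs then lay in 1 direction in all 6 libraries. These were Ywhae above Ywhaz, Ywhab, Ywhaq and Ywhag, and Ywhaz above Ywhag (exact sign-flip permutation test, adjusted over 10 pairs p = 0.0625 for each). By CPM with no length, 1 of 10 pairs did so, Ywhae above Ywhaq (the same test, adjusted p = 0.234).

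**Figure D2:**
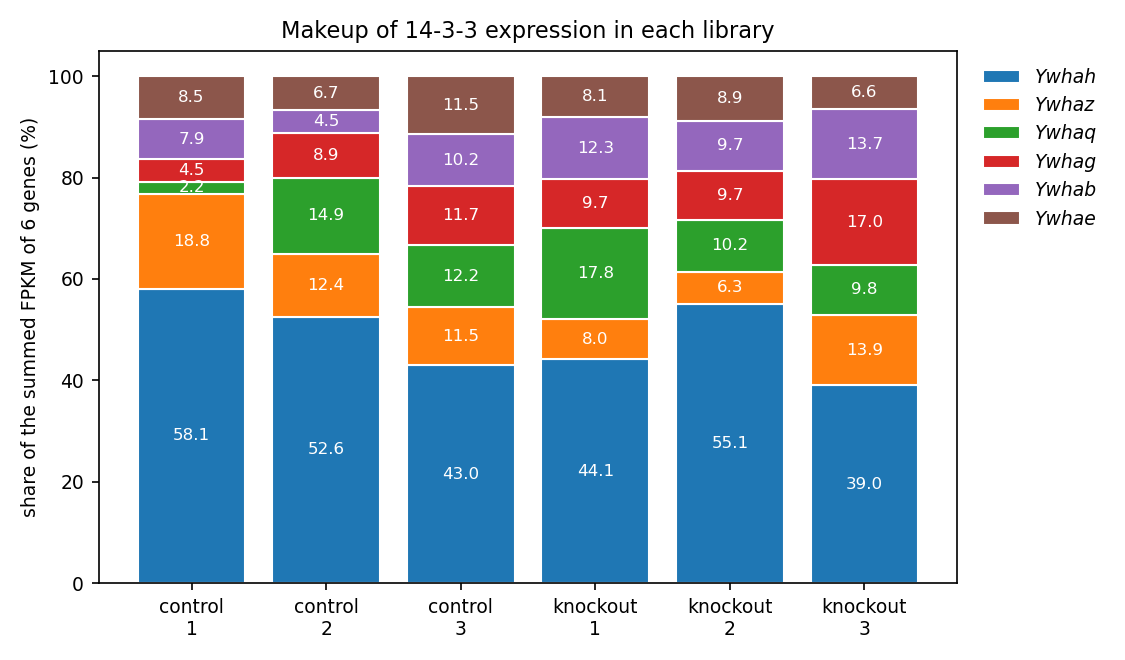
Stacked bars give each gene's share of the summed FPKM of 6 14-3-3 genes, in percent, in each library. Ywhah fills 39.0% to 58.1% of every bar, and Ywhaq narrows to 2.23% in control 1.

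No member passed the comparison of knockout with control. With edgeR's quasi-likelihood test over 5727 genes, 0 of 6 members and 0 genes in all (0.0%) had a Benjamini-Hochberg adjusted p under 0.05. At an unadjusted p under 0.05 there were 0 members and 281 genes (4.91%). DESeq2 called 885 genes (15.0% of those with an adjusted p) and limma voom 88 (1.54%), with 0 members in either. The median log2 fold change was 0.40 over the 6 members, 5 of them positive, against 0.14 over all tested genes, of which 54.2% were positive. This median of all genes was -0.13 with DESeq2's size factors, so members near 0 have no fixed sign.

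Ywhab, which encodes 14-3-3 beta (chromosome 2, 163994960 to 164018588, plus strand), was the one member whose genotypes did not overlap. Controls 1 to 3 held 4866, 2668 and 4906 counts of it, and knockouts 1 to 3 held 9200, 14182 and 5114. Scaled to the library totals, the control levels were 419, 356 and 299.7 CPM and the knockout levels 660.1, 671 and 631 CPM. The lowest knockout lay above the highest control, and the 3 knockouts were within 1.06-fold of each other. The knockout mean, 654 ± 20.6 CPM, was 1.83 times the control mean, 358 ± 59.8 CPM. The edgeR log2 fold change was 0.96 ± 0.79 (SE; unadjusted p = 0.239, adjusted p = 1.00), positive in all 15 alternative fits (0.69 to 1.23). Every knockout lay above every control for 593 tested genes (10.4%) and for 7.36% of the 1196 genes with 10 counts in all libraries, so 1 member of 6 is not set apart from the table as a whole. Every knockout lay below every control for 0 members, beside 2.3% of the tested genes and 5.35% of the 1196. Such closeness of the knockouts was less common: of those 1196 genes, 3 had knockouts within 1.06-fold, Ywhab among them, and the median was 2.96-fold. That feature was picked after its values were seen and has no test, and the 1196 genes were not matched to Ywhab in level.

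**Figure D3:**
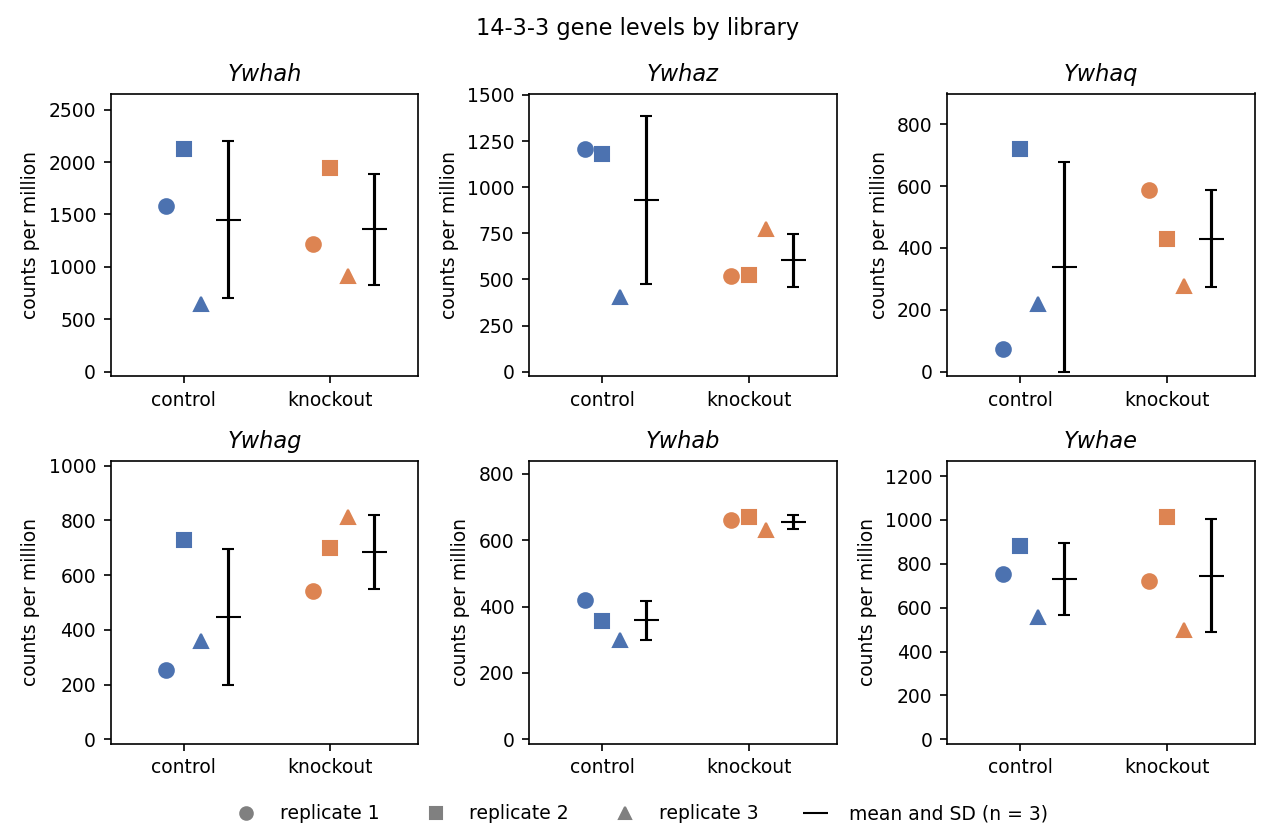
Level of each 14-3-3 gene in CPM, by genotype; points are libraries (circle, square and triangle for replicates 1, 2 and 3) and bars are the mean and SD of 3 libraries. For Ywhab the knockouts (631 to 671 CPM) lie above the controls (299.7 to 419 CPM), and for the other 5 genes the genotypes overlap.

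Ywhaz, which encodes 14-3-3 zeta (chromosome 15, 36770770 to 36796929, minus strand), was the only member with a negative fold change. Its control levels were 1206, 1183 and 405 CPM and its knockout levels 518, 526 and 771 CPM, in the order of replicates 1 to 3, as for the genes that follow. Controls 1 and 2 were the highest, but control 3 was below every knockout. The log2 fold change was -0.55 ± 0.65 in edgeR (adjusted p = 1.00) and negative in all 15 alternatives (-0.94 to -0.10). It was -0.94 without control 3 and -0.12 without control 1, so its size depended on which control was kept.

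Ywhag, which encodes 14-3-3 gamma (chromosome 5, 135908409 to 135934616, minus strand), stood at 253, 728 and 358 CPM in controls and at 541, 699 and 814 CPM in knockouts. Control 2 lay among the knockouts. The log2 fold change was 0.78 ± 0.76 (edgeR, adjusted p = 1.00), and its sign held in all 15 alternatives (0.49 to 1.13).

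Ywhaq, which encodes 14-3-3 theta (chromosome 12, 21390071 to 21417637, minus strand), varied most. Its levels were 73.0, 719.6 and 219.9 CPM in controls and 587, 428 and 276 CPM in knockouts. The controls held both its highest and its lowest library, and the log2 fold change was 0.65 ± 1.08 (edgeR, adjusted p = 1.00). It was 1.63 without control 2, 0.22 without control 1 and 0.22 without knockout 1.

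Ywhae, which encodes 14-3-3 epsilon, a partner of the dynein regulator NDEL1 (chromosome 11, 75732869 to 75765845, plus strand), stood at 754, 881 and 558 CPM in controls and at 722, 1015 and 499 CPM in knockouts. The genotypes overlapped widely, with a knockout mean of 746 ± 259 CPM and a control mean of 731 ± 162 CPM. Its log2 fold change of 0.15 ± 0.64 (edgeR, adjusted p = 1.00) took the opposite sign under other scalings, at -0.13 with DESeq2's size factors. Ywhah stood at 1585, 2123 and 646 CPM in controls and at 1215, 1941 and 917 CPM in knockouts, with a log2 fold change of 0.03 ± 0.51 (edgeR, adjusted p = 1.00). That sign also turned, to -0.23 with DESeq2's size factors and -0.35 without control 3. The intervals are wide for every member, and a p that misses the threshold does not show equal levels.

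**Figure D4:**
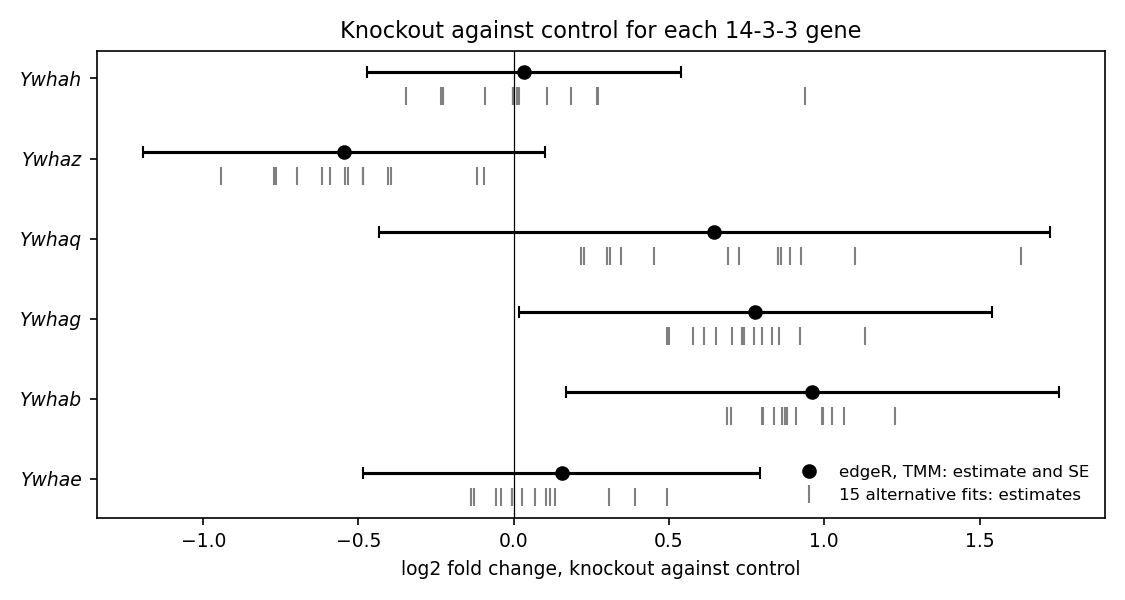
Log2 fold change of knockout against control for each 14-3-3 gene: black points with bars are the edgeR estimate and its SE, and grey ticks are the estimates of 15 alternative fits. Ticks lie on both sides of 0 for Ywhah and Ywhae, and on one side for Ywhaz, Ywhaq, Ywhag and Ywhab.

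The makeup of the family was compared as each gene's share of the summed FPKM, which does not depend on depth or on the scaling between libraries but does depend on the gene lengths. Ywhab made up 12.3%, 9.75% and 13.7% across knockouts 1 to 3 and 7.85%, 4.51% and 10.2% across controls 1 to 3. Control 3 exceeded knockout 2, so these shares overlapped. As shares of the family's counts, which use no length, they were 15.6%, 12.7% and 16.2% across knockouts 1 to 3 and 9.77%, 5.95% and 12.1% across controls 1 to 3, and did not overlap (5.55 points, exact permutation p = 0.1; adjusted over the 6 members p = 0.6). They did not overlap with either GENCODE length (4.50 and 5.97 points, exact permutation p = 0.1 for each). The mean share of Ywhab was 11.9 ± 2.01% in the knockout and 7.52 ± 2.86% in the control, 4.39 percentage points higher (exact permutation test, two-sided, p = 0.2; adjusted over the 6 members p = 0.6). Ywhaz held 9.42 ± 3.99% against 14.2 ± 3.97% (-4.80 points, exact permutation p = 0.3), Ywhag 12.1 ± 4.21% against 8.37 ± 3.60% (3.77 points, exact permutation p = 0.4) and Ywhah 46.1 ± 8.23% against 51.2 ± 7.65% (-5.12 points, exact permutation p = 0.5). For Ywhaq and Ywhae the differences were 2.81 and -1.06 points (exact permutation p = 0.6 for each), and each changed sign when 1 control was left out. For these 5 members the genotypes overlapped with every length used, and an exact permutation of 3 against 3 cannot go below p = 0.1. Single libraries moved the sizes: the difference for Ywhah ran from -9.63 points without knockout 2 and -9.24 without control 3 to -1.68 without control 1 and -1.58 without knockout 3. That for Ywhag fell to 1.86 points without control 1 and 1.34 without knockout 3, and that for Ywhaz ran from -7.05 points without knockout 3 to -2.53 without control 1. Without control 2 the difference for Ywhab was 2.89 points, and that for Ywhaq ran from -0.97 points without control 1 and 0.19 without knockout 1 to 5.37 without control 2. Counting error is small beside that spread: the share of Ywhah in the family's counts was 28.6% in knockout 1, with a 95% Wilson interval of 28.3% to 29.0% that covers counting error only.

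Ratios between members within a library were examined after the values were seen, for all 15 pairs. In 3 pairs the genotypes did not overlap, and in 12 they did. Single genes also separated by genotype: of the 1196 genes used above, 7.36% were higher in each knockout and 5.35% lower. How often ratios between other genes separate was not tested, so the 3 pairs are not set apart. The ratio of Ywhab to Ywhaz, the paralogs with the second highest coding identity, was 0.418, 0.363 and 0.890 across controls 1 to 3 and 1.54, 1.54 and 0.986 across knockouts 1 to 3. By FPKM zeta exceeded beta in every library but knockouts 1 and 2, and the mean log2 ratio was 1.37 higher in the knockout, a 2.58-fold shift (exact permutation p = 0.1, the smallest possible; adjusted over 15 pairs p = 0.5). The ratio of Ywhag to Ywhaz was 0.242, 0.712 and 1.02 across controls and 1.21, 1.54 and 1.22 across knockouts, and that of Ywhab to Ywhae 0.921, 0.671 and 0.890 against 1.51, 1.10 and 2.10 (exact permutation p = 0.1 and adjusted p = 0.5 for both). Control 3 was the control nearest to the knockouts for both ratios to Ywhaz, and control 1 for Ywhab to Ywhae. These pairs share genes and libraries, so they are not separate pieces of evidence. By contrast, the ratio of Ywhae to Ywhah was 0.147, 0.128 and 0.267 across controls and 0.183, 0.161 and 0.168 across knockouts, with log2 means that differed by -0.0035.

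**Figure D5:**
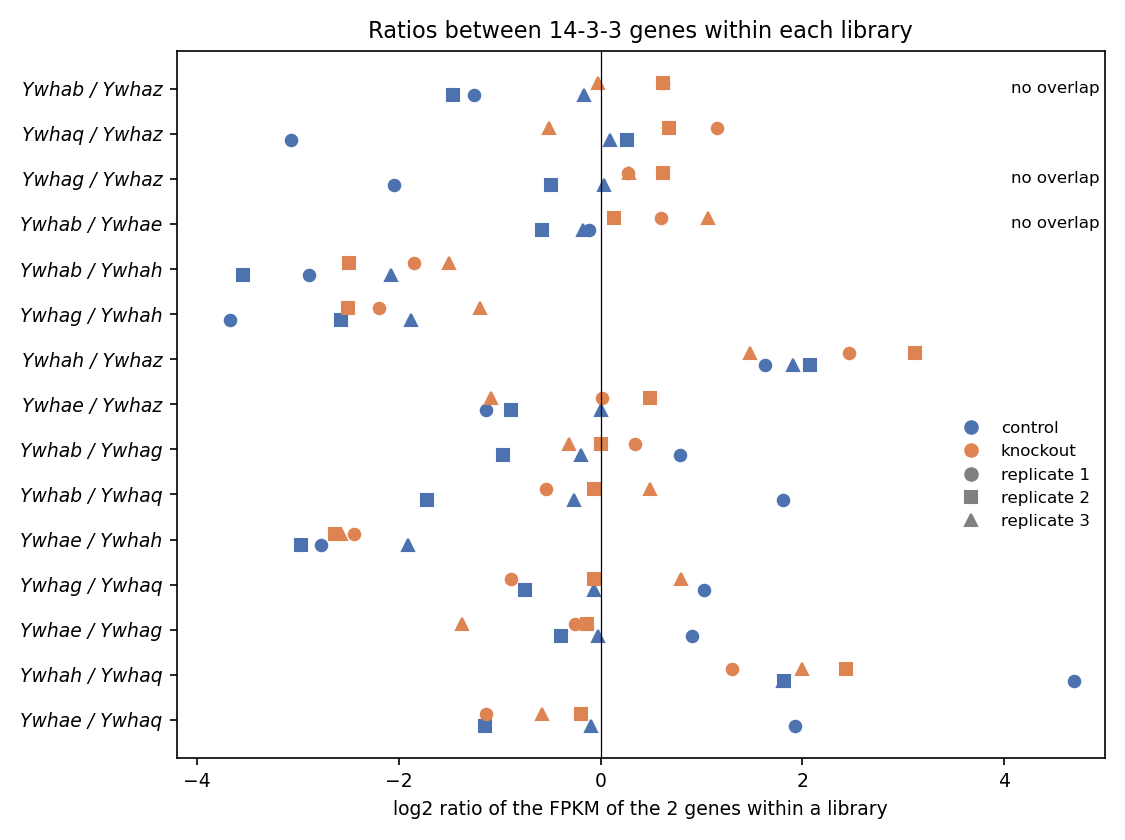
Log2 ratio of the FPKM of 2 members within each library for all 15 pairs, sorted by the difference between genotypes; blue points are controls, orange points knockouts, and shapes are replicates. Genotypes do not overlap for Ywhab to Ywhaz, Ywhag to Ywhaz and Ywhab to Ywhae, and they overlap for the other 12 pairs.

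The genes around the family were sparser. Among 38 proteins known to bind 14-3-3, those with 10 counts or more numbered 6, 12 and 13 across controls 1 to 3 and 18, 16 and 17 across knockouts 1 to 3, beside 4258 to 4863 detected genes of all kinds in the controls and 5790 to 7209 in the knockouts. Of the 16 tested, 9 were positive and 7 negative, 0 passed, and their median log2 fold change was 0.17. Ssh1, a phosphatase that activates cofilin, had control counts of 0, 0 and 9 and knockout counts of 156, 106 and 703 (edgeR, unadjusted p = 0.0711). Every Ssh1 knockout lay above every control, as for 10.4% of tested genes. Ssh1 passed the low-count filter (filterByExpr) only through the knockouts, which fixed its positive sign. Irs2, an adaptor of the insulin receptor, had 1, 28 and 0 counts against 749, 2213 and 3, where 1 knockout was as low as the controls. Mdm4, an inhibitor of p53, had control counts of 7, 223 and 848 and knockout counts of 0, 71 and 0, and Ksr1, a scaffold of the RAF and MEK kinases, 0, 1 and 80 against 742, 0 and 162.

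Of 28 listed kinases that write 14-3-3 binding sites, 27 were analysed. Those with 10 counts or more numbered 11, 15 and 14 across controls and 18, 20 and 16 across knockouts. Detected genes of all kinds were also more numerous in the knockouts, at a mean of 6579 against 4528 in controls. The summed CPM of the 27 kinases went the other way, at 1683, 1911 and 1653 across controls and 1284, 1317 and 1325 across knockouts. How often the sums of other gene sets separate by genotype was not tested. Of the 19 tested, 10 were positive and 9 negative, with 0 past the adjusted threshold, 1 at an unadjusted p under 0.05 and a median log2 fold change of 0.26. Lats2, the Hippo kinase that marks YAP for 14-3-3, had control counts of 0, 1 and 0 and knockout counts of 53, 3212 and 1600 (edgeR, unadjusted p = 0.0234, adjusted p = 0.781). Akt2, a kinase of BAD and FOXO proteins, had 5, 0 and 0 counts against 290, 562 and 369, and Rps6ka3, a ribosomal S6 kinase, 0, 16 and 31 against 676, 578 and 893. Mark2, a polarity kinase, had 0, 11 and 0 against 105, 345 and 1. The control counts of all 4 were at most 31, and none of the 4 passed. Every knockout lay above every control in CPM for Lats2, Akt2 and Rps6ka3, as for 10.4% of tested genes. Lats2 and Akt2 passed the low-count filter (filterByExpr) only through the knockouts. Their positive sign was thus fixed by the filter, and the p of Lats2 adds no support.

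Phosphatases that can remove such marks were detected more widely, with 7 of 15 at 10 counts or more in all 6 libraries. Of the 13 tested, 7 were positive and 6 negative, 0 passed, and the median was 0.55. Ppp2ca, a catalytic subunit of protein phosphatase PP2A, averaged 469 ± 194 CPM in knockouts and 816 ± 635 CPM in controls, a log2 fold change of -0.70 ± 0.79. Ppp1cb, a catalytic subunit of PP1, was at 458 ± 273 against 261 ± 225 CPM (1.02 ± 1.21). The regulatory subunits of PP2A differed in sign: Ppp2r5a was at 43.8 ± 46.9 against 215.8 ± 191.7 CPM, and Ppp2r5c at 163 ± 144 against 42.6 ± 57.9 CPM. The groups of all 4 overlapped.

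The genes whose pattern was most like that of Ywhah over the 6 libraries were Wdr33, an mRNA 3′ end processing factor (Pearson r = 0.995 on log2(CPM + 1)), Tsg101 of the ESCRT machinery (0.992) and Ndfip2, an adaptor of NEDD4 ubiquitin ligases (0.972). For the summed family they were Dazap2 (0.995), Nrip3 (0.976) and Zwint (0.974). Of 5524 genes compared, 0.923% had r over 0.9 with Ywhah and 0.959% with the sum; all values come from the same 6 libraries, and with 6 points such values arise among many genes. Most of these genes varied more than the family did: Wdr33 ran from 5.62 CPM in control 3 to 343 CPM in control 2, and Zwint from 128 to 3499 CPM in the same libraries.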

How the data were processed

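The authors deposited raw counts per gene and FPKM for 22413 genes, 1 column per sample; 0 columns of other samples were present. The submitters' processing notes name mm10, HISAT2, HTSeq, fastp, DESeq2 and R 3.2.0; which did what, the strand setting and the gene annotation remain unstated in those notes and in the labels. Per the labels' protocols, 1 ng of total RNA went into each library. Each deposited FPKM is the count divided by 1 length per gene and by the column total. Counts were tested with edgeR 4.0.16 (TMM, filterByExpr, robust quasi-likelihood, Benjamini-Hochberg threshold 0.05) in R 4.3.3, genotype as the only term. The fit was also run on simulated counts, and the outcome of that run is not given here. The SE is the log2 fold change over the root of F. DESeq2 1.42.0 and limma 3.58.1 were alternatives, beside other scalings, filters, FPKM pseudocounts of 1 and 0.1, a replicate block, each library left out and, added after the values were seen, GENCODE gene lengths. Single values per library were compared by exact permutation in Python 3.11.15. Locations and transcripts are from GENCODE M21, coding sequences aligned with MAFFT 7.526. The members, 3 gene lists and 13 marker lists were chosen with earlier results of these data known. Named genes were all members, up to 4 genes of each list by smallest p, and the 3 most correlated genes with Ywhah and with the family sum, leaving out predicted genes and pseudogenes. Gm2423, Ywhaq-ps3, Cdk5rap2, Gm4202, Gm4419 and Gm26836 were named for shared sequence or position.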

Additional observations from a re-analysis of the deposited data

How the results depend on the processing

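In all 16 alternatives 0 members were called, while the number of genes called was 885 with DESeq2, 88 with limma voom and 0 to 7 with 1 library left out. Signs held in all 15 alternative fits for Ywhab, Ywhag, Ywhaq and Ywhaz. For Ywhae the log2 fold change was -0.13 with DESeq2's size factors, -0.14 with DESeq2, -0.0054 on log2(FPKM + 1) with and without the filter and -0.0057 with a pseudocount of 0.1, and ran from -0.058 to 0.39 with 1 library left out. For Ywhah it was -0.23 with DESeq2's size factors, -0.094 with library totals only, -0.23 with DESeq2, -0.0024 on log2(FPKM + 1) with and without the filter and -0.0023 with a pseudocount of 0.1, and ran from -0.35 to 0.27; limma voom gave 0.94 (unadjusted p = 0.0311), where the median of all genes was 1.58. With 1 library left out, the summed CPM difference ran from -662.6 to 1089, the share difference of Ywhae from -2.14 to 0.22 points that of Ywhaq from -0.97 to 5.37, that of Ywhab from 2.89 to 5.73, that of Ywhag from 1.34 to 5.43, that of Ywhah from -9.63 to -1.58 and that of Ywhaz from -7.05 to -2.53 points. The cause of these turns was not tested.

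With the replicate number as a block, 0 members were called, Ywhab had a log2 fold change of 0.99 ± 0.97 (edgeR, adjusted p = 1.00), and it changed no call. The numbers give no sign of pairing: same-numbered libraries correlated at -0.02, 0.03 and -0.01 in their deviations from the genotype means across genes. Depth did not limit detection of any member, since all 6 were detected in every library thinned to 7486359 counts. The spread between libraries (biological coefficient of variation 2.04) limits what 3 against 3 can show.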
